A study of Mus musculus with 6 samples.

Results

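The genes described here are 35 genes of chromosome duplication and division, 13 that act in DNA replication and 22 that act in mitosis. They were chosen by name, and every probe set annotated with exactly 1 of these symbols was taken. Of the 35, 34 were measured, of 12393 genes with such a probe set in all, by 63 of the 22626 probe sets on the array, and Ccnb1 had no probe set of its own symbol. Gene expression had been profiled in the cochlea, where sound is turned into nerve signals, of male mice of the strain DBA/2J, which is inbred and becomes deaf early. The groups were 3 samples from mice 7 weeks old and 3 from mice 36 weeks old, with no treatment, and each sample was hybridised to its own single-colour Affymetrix array. The sources used here do not say whether a sample held 1 animal or several, so p-values measure the spread between these samples only. The values are linear probe-set signals (arbitrary units). Each gene is given by its brightest probe set over the 6 arrays, and all differences are 36 weeks minus 7 weeks on the log2(signal + 50) scale followed by ± and the standard error (SE), from 3 arrays per age. The signal of one gene cannot be set against that of another, because probe sets bind with different strength.

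A dividing cell copies its DNA once and then separates the copies. The MCM proteins form the ring-shaped helicase that opens the double helix, Cdc6 helps load it, Pcna is the sliding clamp of the polymerases, Prim1 makes the primers, and ribonucleotide reductase, thymidylate synthase and thymidine kinase supply the nucleotides. Cyclins A and B with Cdk1 and the Polo and Aurora kinases then drive mitosis, and the anaphase promoting complex ends it. Transcripts of most of these genes accumulate in cycling cells and are low in resting ones. Mature hair cells and supporting cells of the mammalian cochlea do not divide, whereas a dissected cochlea also holds bone, marrow, blood vessels and connective tissue.

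The array medians lay between 766.3 and 859.4, and arrays of the same age correlated more closely (r of log2 signals from 0.944 to 0.950) than arrays of different ages (0.895 to 0.903). Over all 13575 probe sets bright enough to be tested, limma with Benjamini-Hochberg adjustment called 2267 higher and 2398 lower at 36 weeks (adjusted p under 0.05), and with each array centred on its median 1738 higher and 3088 lower. That centring moved the median difference of the tested probe sets from 0.02 to -0.08. Relative to that median, the replication genes stood at 0.74 and the mitotic genes at 0.72. Centring shifts all probe sets of an array alike, so it cannot change these distances. With quantile normalization they were 0.68 and 0.65. Of 13 cochlear markers 11 were tested. Of these 9 were called lower and 0 higher (also 9 and 0 at an unadjusted p under 0.05), against 17.7% and 16.7% of all tested probe sets. Differences of 2 of the 13 were above 0: Myo7a (0.35, tested and not called) and Slc26a5 (0.33, too dim to be tested). The summed signal of the 13 went from between 229406 and 237898 at 7 weeks to between 54240 and 54487 at 36 weeks. Coch, Otos and Gjb2, cochlear genes of the fibrocytes and gap junctions, were bright at both ages, with mean signals of 82144, 73912 and 22953 at 7 weeks and 21556, 13801 and 6187 at 36 weeks.

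Most replication and mitosis genes had higher signals in the older cochlea. Of the 34 measured genes 33 had a difference above 0 and 1, Pcna, had one below 0. The median difference was 0.75, against 0.04 over all probe sets on the array, and the median ratio of mean signals was 1.79. In 24 genes all 3 arrays of 36 weeks lay above all 3 of 7 weeks, in 1 (Pcna) all lay below, and in 9 the ages overlapped. Over all probe sets on the array, 19.2% lay wholly above and 17.8% wholly below. In whole tissue, fewer cells of a type and less RNA per cell cannot be told apart, and the same holds for more.

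Fitted without a filter on dim signals, 16 of the 34 genes were called higher and 0 lower, against 9.56% and 9.99% of all probe sets. At an unadjusted p under 0.05 the counts were 26 higher and 1 lower. With the filter, which keeps probe sets whose mean over the 6 arrays lies above the 40th percentile (a signal of 594), 22 of the 34 genes were tested. Of these 16 were called higher and 0 lower, against 16.7% and 17.7% of all tested probe sets, and at an unadjusted p under 0.05 the counts were 19 and 1. Adding a minimum change of 1.5-fold left 13 calls, where 11.2% of tested probe sets passed. In 5 of the 22 tested genes (Mcm2, Mcm5, Cdk1, Plk1 and Ube2c) the mean at 7 weeks lay below the filter, so that they were tested through their signal at 36 weeks. The other 17 lay above it at both ages, and 11 of them were called. All adjusted p-values below come from limma with the filter unless the fit without it is named.

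**Figure D1:**
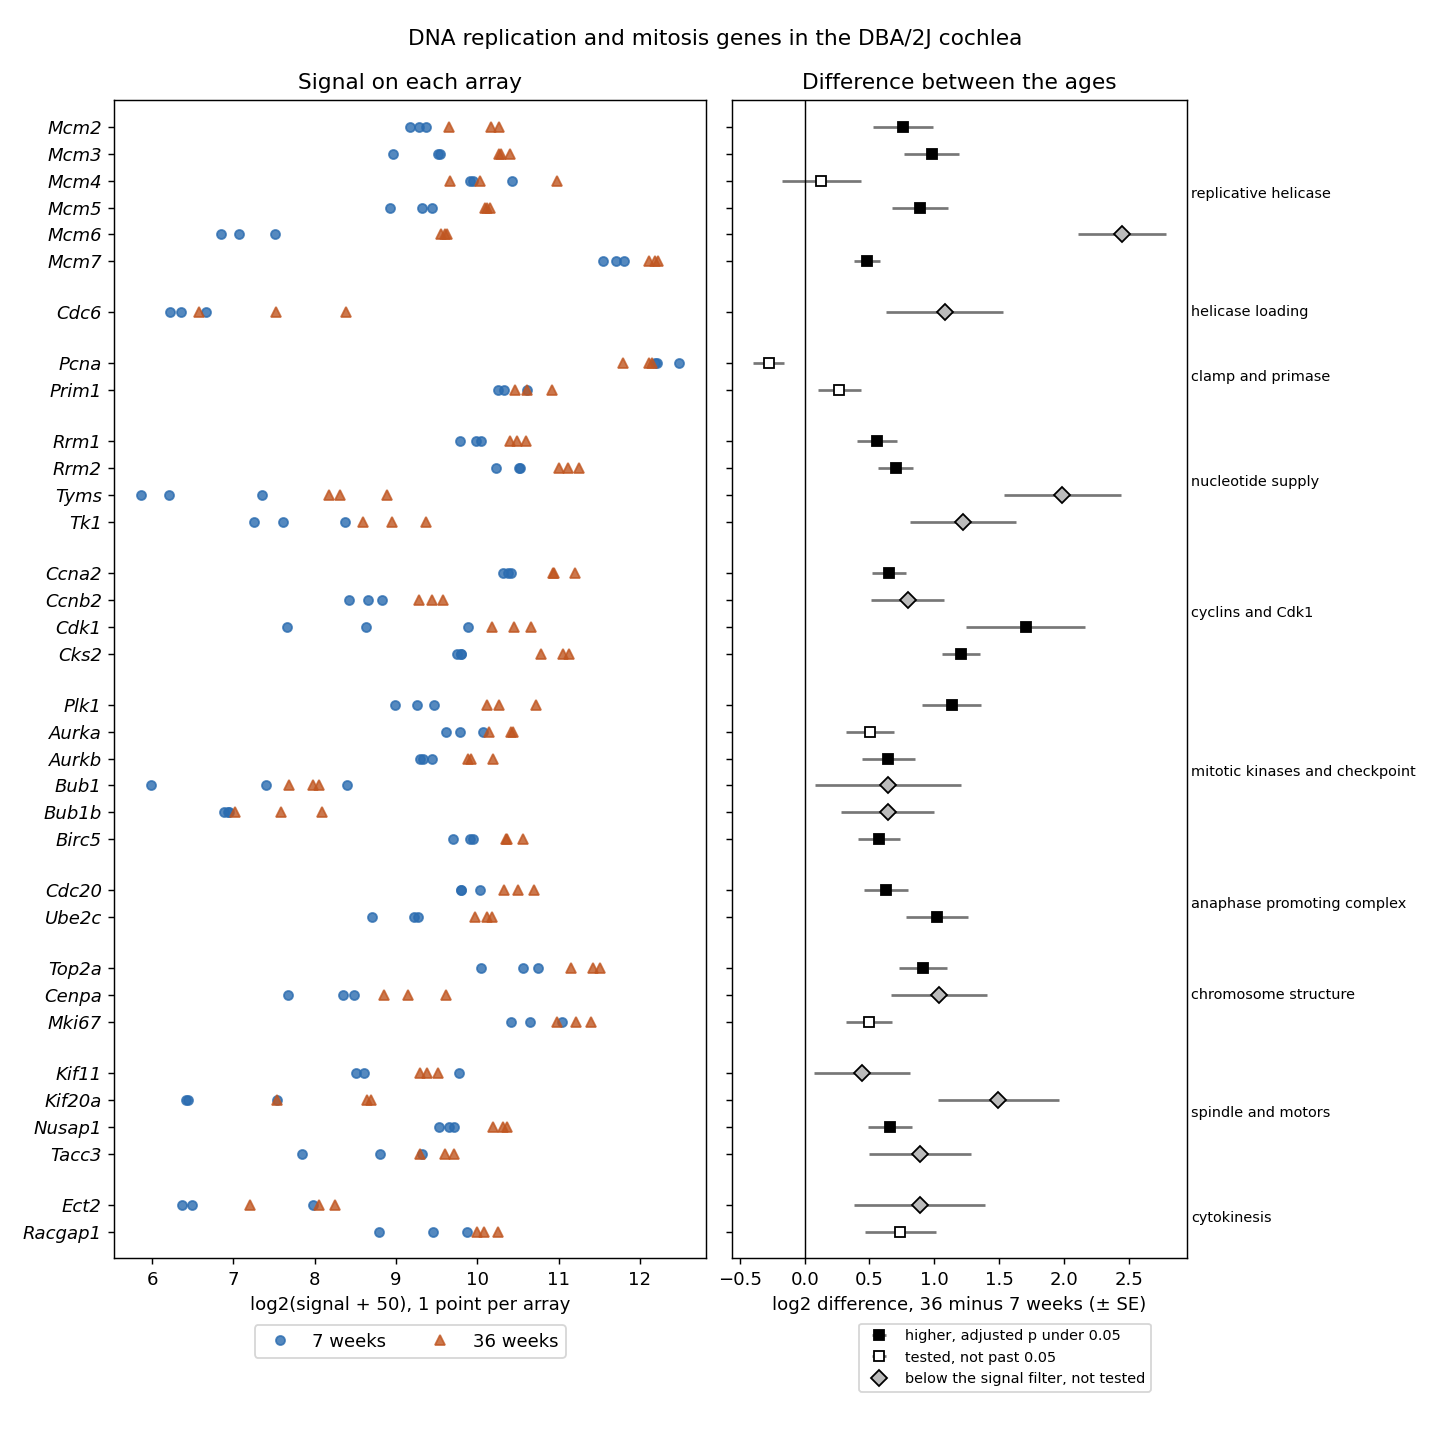
Left, log2(signal + 50) of each gene on each of the 6 arrays (circles 7 weeks, triangles 36 weeks); right, the log2 difference between the ages with its SE (bars), filled where past an adjusted p of 0.05, open where tested and not past it, and grey where the gene lay below the signal filter. In 24 of the 34 genes the triangles lie wholly to the right of the circles, and Pcna alone lies below 0.

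**Figure D2:**
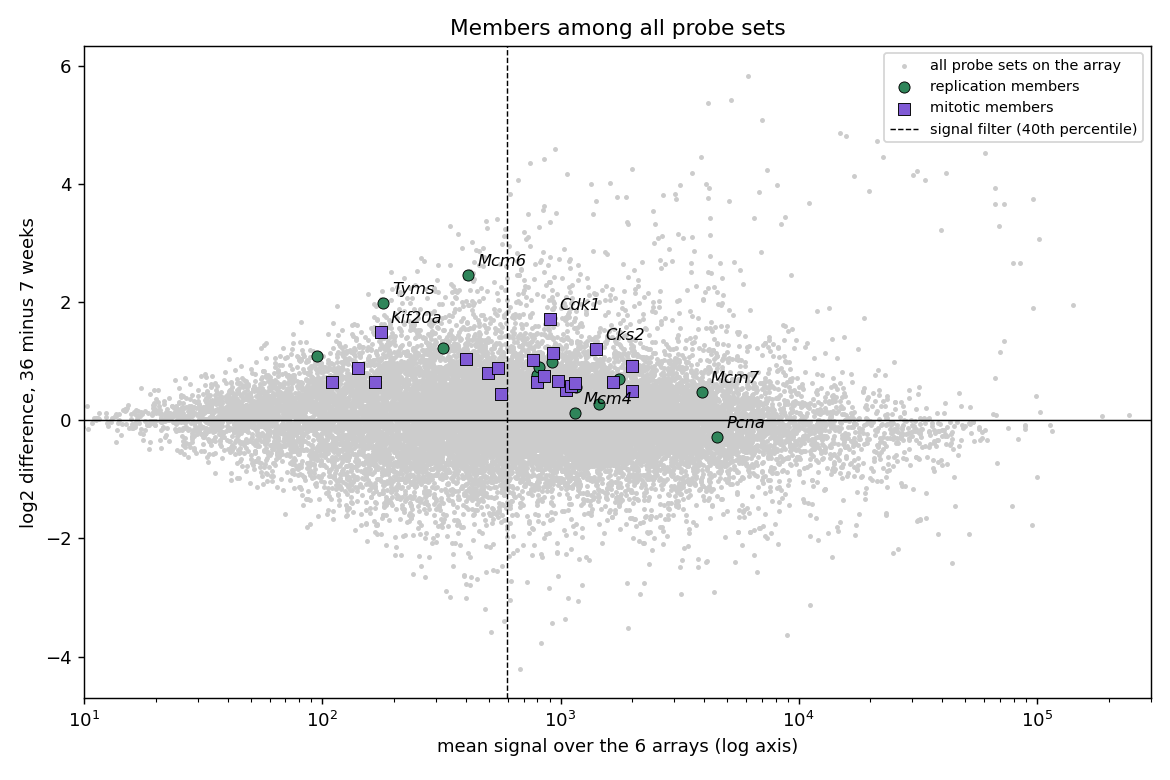
Log2 difference between the ages against the mean signal over the 6 arrays (log axis) for all probe sets on the array (grey), the replication genes (circles) and the mitotic genes (squares), with the signal filter as a dashed line. The genes lie above 0 over the whole range of signals, apart from Pcna at -0.28, and 12 of the 34 lie to the left of the filter.

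The promoters are shown because both classes moved in the same direction, while some short sequence words differed in share between them and another was common in both. The bearing of these words on the differences between the ages was not tested. RefSeq windows of GRCm38.p6, from 250 bases before to 50 after the transcript start, were on hand for 31 of the 35 genes, and those of Mcm4, Ccna2, Aurkb and Kif20a were not matched. The words were searched on both strands: TTTGAA, the core of the cell cycle homology region that the DREAM complex reads; CCAAT, the box bound by NF-Y; and the words of E2F sites, TTCCCGC and also TTGGCGC and also TTCGCGC and also TTGCCGC, which can overlap one another. TTTGAA was found for 13 of 19 mitotic genes (68.4%) and for 1 of 12 replication genes (8.33%), beside 17.9% of all 32851 windows. An E2F word was found for 8 of 12 replication genes (66.7%) and 5 of 19 mitotic genes (26.3%), beside 9.57% of all windows. These shares count genes, of which Mcm7 and Ect2 had 2 windows each, whereas the background counts windows. The 19 include Ccnb1, which was not measured. CCAAT stood in 9 of 12 and 16 of 19 (75% and 84.2%), beside 37.4%. These are matches of letters, and binding was not measured. Below are the upstream stretches of Rrm2 and Mcm5 for replication and of Top2a and Ube2c for mitosis, in each class the 2 genes with the smallest adjusted p among those called with a single window whose upstream bases hold the word of its class. Mcm7, with 2 windows, and Mcm3 and Plk1, whose word lay only after the start, had smaller adjusted p-values than Mcm5 or Top2a and are not shown. Cks2, with the smallest adjusted p of the 22 tested genes (0.000137), had 1 window without TTTGAA and is not shown either. Ccna2, at 0.00343 just below Top2a (0.00344), had no matched window. The 4 shown were picked after their values were seen, and bases within the annotated gene were left off. They read 5′ to 3′ on the gene's strand, with the words found in capitals.
Rrm2, chr12:24708004-24708253, + strand: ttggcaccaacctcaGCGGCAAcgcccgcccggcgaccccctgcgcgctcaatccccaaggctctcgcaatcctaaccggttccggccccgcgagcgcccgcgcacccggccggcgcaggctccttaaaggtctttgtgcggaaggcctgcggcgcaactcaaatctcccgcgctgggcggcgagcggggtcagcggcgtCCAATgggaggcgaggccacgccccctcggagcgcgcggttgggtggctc
Mcm5, chr8:75109259-75109467, + strand: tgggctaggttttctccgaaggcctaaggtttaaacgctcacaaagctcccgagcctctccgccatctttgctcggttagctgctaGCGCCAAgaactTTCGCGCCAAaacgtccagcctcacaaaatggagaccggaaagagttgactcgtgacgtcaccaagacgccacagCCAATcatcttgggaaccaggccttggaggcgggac
Top2a, chr11:99024200-99024439, - strand: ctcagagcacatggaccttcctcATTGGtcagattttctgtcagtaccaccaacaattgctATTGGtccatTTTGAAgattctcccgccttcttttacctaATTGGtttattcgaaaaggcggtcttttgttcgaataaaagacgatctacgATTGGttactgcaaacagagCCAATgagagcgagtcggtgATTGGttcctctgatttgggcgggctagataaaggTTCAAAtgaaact
Ube2c, chr2:164769679-164769928, + strand: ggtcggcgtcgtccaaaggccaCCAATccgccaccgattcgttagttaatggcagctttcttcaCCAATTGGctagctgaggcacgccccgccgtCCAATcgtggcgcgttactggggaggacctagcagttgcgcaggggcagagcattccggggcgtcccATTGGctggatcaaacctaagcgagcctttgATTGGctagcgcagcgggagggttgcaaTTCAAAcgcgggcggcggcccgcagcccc
In Mcm5 the E2F words lie between 149 and 164 bases before the start, and in Top2a and Ube2c the TTTGAA word nearest the start, read on the other strand as TTCAAA, begins 23 and 29 bases before it.

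Of the 6 subunits of the replicative helicase, Mcm2, Mcm3, Mcm5 and Mcm7 were called higher, Mcm4 was tested and not called, and Mcm6 lay below the filter. Mcm3 had signals of 684.2, 695.2 and 448.7 at 7 weeks and 1204.2, 1304.9 and 1182.3 at 36 weeks. The older arrays lay close together and all above the younger ones, with a difference of 0.98 ± 0.21 (adjusted p = 0.00522). The probes read here for Mcm3 can also bind related transcripts. Mcm5, whose promoter is printed above, had 438.4, 588.9 and 643.6 at 7 weeks and 1040.9, 1065.8 and 1090.3 at 36 weeks. Its ages were again apart, by 0.89 ± 0.22 (adjusted p = 0.00907), and its spread at 36 weeks was small. Mcm7, read by a probe set whose probes can also bind related transcripts, went from 3256 ± 289 to 4561 ± 172 (SD), a difference of 0.48 ± 0.10 (adjusted p = 0.00369). Mcm7's brightest probe set without that property differed by 0.34 (adjusted p = 0.0971), short of the threshold. Mcm2 had 525.8, 612.7 and 573.3 at 7 weeks and 1104.7, 755.4 and 1184.3 at 36 weeks, a difference of 0.76 ± 0.23 (adjusted p = 0.0285). The older arrays of Mcm2 were widely spread, and its adjusted p passed the threshold no longer when 1 array was left out: 0.0686 without replicate 1 and 0.0559 without replicate 3 of 7 weeks, and 0.0981 and 0.114 without replicates 1 and 3 of 36 weeks. Without the filter it was 0.0551, and with quantile normalization 0.0527. The second probe set of Mcm2, nearly as bright, was tested and differed by -0.04 ± 0.25, with the ages overlapping (adjusted p = 0.923).

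Mcm6 and Tyms had the largest differences of the 34 genes, and both were dim at 7 weeks. The signals of Mcm6 were 65.4, 84.5 and 132.6 at 7 weeks, among the dimmest on the array, and 728.2, 739.9 and 704.5 at 36 weeks. The groups were far apart, by 2.45 ± 0.34, and the fit without the filter called it higher (adjusted p = 0.000891). A dimmer probe set of Mcm6, with the ages overlapping, differed by 0.86 ± 0.54 and was not called without the filter (adjusted p = 0.321). The size rests on the offset at such dim signals: with offsets of 50, 16 and 1 the difference of Mcm6 was 2.45, 2.79 and 2.99, and that of Tyms 1.99, 2.67 and 3.34. Mcm4, by contrast, had 908.8, 941.6 and 1324 at 7 weeks and 1965.5, 760.9 and 994.4 at 36 weeks. A single older array was high and another was the lowest of all 6, and the difference of 0.13 ± 0.30 did not pass (adjusted p = 0.777). Without that high array, replicate 1, it was -0.25, and averaged over both probe sets -0.20, so Mcm4 has no settled direction. Cdc6, the loader of the helicase, was near the floor at 7 weeks (51.5, 31.9 and 24.6) and scattered at 36 weeks (134.6, 45.2 and 283.5). Its ages overlapped, and it was not called without the filter (adjusted p = 0.135).

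The clamp and the primase were tested and not called. Pcna had 4699.1, 4605.4 and 5664.7 at 7 weeks and 3483.9, 4376.2 and 4477.4 at 36 weeks. All older arrays lay below all younger ones, yet the difference of -0.28 ± 0.12 did not pass (adjusted p = 0.106). With arrays centred on their medians Pcna was called lower (adjusted p = 0.0351). Prim1 had 1169.9, 1514.9 and 1239.7 at 7 weeks and 1513, 1886.4 and 1364.5 at 36 weeks. Its ages overlapped and the difference of 0.27 ± 0.17 did not pass (adjusted p = 0.246). A dimmer probe set of Prim1, also overlapping, differed by 1.07 ± 0.40 and was not called without the filter (adjusted p = 0.0947).

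Both tested genes of nucleotide supply were called higher. For Rrm2, the small subunit of ribonucleotide reductase, the signals were 1151.1, 1423.1 and 1414 at 7 weeks and 2008.8, 2391.1 and 2165.5 at 36 weeks, with no overlap, and the difference was 0.70 ± 0.14 (adjusted p = 0.00295). Its probes can also bind related transcripts, and Rrm2's other probe sets were higher as well, by 1.98 (adjusted p = 0.00201) and by 1.05 (adjusted p = 0.0315 without the filter). Rrm1, the large subunit, went from 934 ± 90.1 to 1398 ± 96.7 (SD), a difference of 0.56 ± 0.16 (adjusted p = 0.0187). Its ages were apart, but the call was lost without replicate 2 of 7 weeks (adjusted p = 0.0588) or of 36 weeks (0.0649), and Rrm1's second probe set differed by 0.05. Tyms, thymidylate synthase, was below the filter, with 23.7, 8.4 and 113.6 at 7 weeks and 267.6, 239.8 and 426.4 at 36 weeks. Its ages did not overlap, and without the filter it was called higher by 1.99 ± 0.45 (adjusted p = 0.0134). The other probe sets of Tyms were about as dim (mean signals of 170 and 134 against 180) and differed by -0.22 ± 0.72 and 0.05 ± 0.42. In both the ages overlapped, and neither was called without the filter (adjusted p = 0.871 and 0.956). Tk1, the thymidine kinase of S phase, was also dim and apart, with 282.9, 146.3 and 102.1 at 7 weeks and 610.8, 443 and 337.6 at 36 weeks, and was not called without the filter (adjusted p = 0.0689).

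Among the drivers of mitosis, Cdk1, Cks2 and Ccna2 were called higher. Cks2, a small subunit of the Cdk1 complex, had 811.6, 845.2 and 839.9 at 7 weeks and 2186.1, 2085.8 and 1715.6 at 36 weeks. The younger arrays of Cks2 were nearly equal and the older ones all far above them, a ratio of 2.40 and a difference of 1.21 ± 0.15, with the smallest adjusted p of the 22 tested genes (0.000137). Its second probe set also passed, at 0.92 (adjusted p = 0.00924). Ccna2, cyclin A, which acts in S phase and at the entry to mitosis, had 1320, 1227.3 and 1281.2 at 7 weeks and 1922.8, 1903.9 and 2298 at 36 weeks. The difference was 0.65 ± 0.13 (adjusted p = 0.00343), and its second probe set passed as well, at 0.56 (adjusted p = 0.045). Cdk1, the kinase that starts mitosis, had 899.8, 347.4 and 151.9 at 7 weeks and 1353.4, 1115.2 and 1568.3 at 36 weeks. The younger arrays were widely scattered, although all lay below the older ones, and the difference was 1.71 ± 0.46 (adjusted p = 0.0156). Without replicate 3 of 36 weeks the adjusted p of Cdk1 was 0.0538. Ccnb2, a B-type cyclin, was below the filter with 294.3, 355 and 403.4 at 7 weeks and 572.5, 713.9 and 646 at 36 weeks. Its ages did not overlap, and it was not called without the filter, at 0.80 ± 0.28 (adjusted p = 0.083).

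Mitotic kinases differed in how firmly they moved. Plk1, the Polo kinase of spindle assembly and cytokinesis, had 561.4, 661 and 458.3 at 7 weeks and 1639.3, 1066.8 and 1186.6 at 36 weeks, and its older arrays were all well above the younger, by 1.13 ± 0.23 (adjusted p = 0.0033). Aurkb, the kinase of the chromosomal passenger complex, went from 606 ± 34.4 to 979.8 ± 123 (SD), by 0.64 ± 0.20 (adjusted p = 0.0327). This call was lost without either of replicates 1 and 2 of 7 weeks (adjusted p = 0.0714 and 0.0691) and without any array of 36 weeks (0.124, 0.0543 and 0.0636 for replicates 1, 2 and 3). It was also lost with quantile normalization (0.0592), with median centring (0.0604) and without the filter (0.0603). The probes read here for Aurkb can also bind related transcripts. Birc5, survivin, a partner of Aurkb in that complex, had 784.1, 940.7 and 910.3 at 7 weeks and 1273.1, 1254.8 and 1464.7 at 36 weeks. The ages of Birc5 were apart by 0.57 ± 0.16 (adjusted p = 0.02), but not past the threshold without replicate 1 of 7 weeks (0.0592) or replicate 3 of 36 weeks (0.0772).

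Aurka, the kinase of spindle poles, had 736.1, 835.3 and 1026.1 at 7 weeks and 1343.9, 1311 and 1083.6 at 36 weeks. The ages were just apart, and the difference of 0.51 ± 0.18 fell short (adjusted p = 0.0556), although without replicate 3 of 7 weeks it passed (0.0373), as it did without the intensity trend (0.0458). The spindle checkpoint kinases Bub1 and Bub1b were dim. Bub1 had 13.4, 288 and 119.5 at 7 weeks and 214.6, 156.2 and 202.7 at 36 weeks, with the ages overlapping, and Bub1b had 72.6, 68.2 and 73.3 and 79.7, 141.5 and 222.2, just apart. Neither was called without the filter (adjusted p = 0.489 for Bub1 and 0.264 for Bub1b).

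Both genes of the anaphase promoting complex were called. Ube2c, its ubiquitin-conjugating enzyme, had 368.7, 569.2 and 547.6 at 7 weeks and 1061.4, 956.6 and 1108.6 at 36 weeks. The older arrays of Ube2c were all far above the younger, by 1.02 ± 0.24 (adjusted p = 0.00736). Cdc20, its activator, went from 895 ± 92.8 to 1413 ± 187 (SD), by 0.63 ± 0.17 (adjusted p = 0.0151), and the adjusted p was 0.0631 without replicate 2 of 36 weeks. The probes read here for Cdc20 can also bind related transcripts. Another bright probe set of Cdc20, without that property, passed at 0.59 (adjusted p = 0.0405).

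Of the genes of chromosome structure, Top2a, the topoisomerase that untangles replicated DNA, had 1671.9, 1004.3 and 1459.4 at 7 weeks and 2229.7, 2876.3 and 2688.2 at 36 weeks. Its ages were apart by 0.91 ± 0.19 (adjusted p = 0.00344). Mki67, the antigen Ki-67 that coats mitotic chromosomes and marks cycling cells in tissue sections, had 1558.3, 2067.9 and 1320.7 at 7 weeks and 1973, 2335.5 and 2661 at 36 weeks. One younger array exceeded the lowest older one, and the difference of 0.50 ± 0.18 lay at the edge of the threshold (adjusted p = 0.0508); Mki67 passed without replicate 2 of 7 weeks (0.016), without replicate 1 of 36 weeks (0.0389) or with the filter at the 60th percentile (0.0431). Cenpa, the centromeric histone, was below the filter with 275.7, 308.5 and 153.6 at 7 weeks and 515.7, 736.7 and 412.3 at 36 weeks; the ages were apart, with no call without the filter (adjusted p = 0.0847).

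Among spindle genes Nusap1, a microtubule-bundling protein, was called. Its signals were 786.9, 690 and 758.1 at 7 weeks and 1268.8, 1122.1 and 1224.9 at 36 weeks, a close set at each age, and the difference was 0.66 ± 0.17 (adjusted p = 0.0127). The motors Kif11 and Kif20a and the spindle protein Tacc3 lay below the filter, and in all 3 the ages overlapped. Kif20a, a motor of cytokinesis, had 35.7, 136.3 and 36.7 at 7 weeks and 135.7, 364 and 351.4 at 36 weeks, and its difference of 1.49 ± 0.47 was not called without the filter (adjusted p = 0.0536). Kif11 differed by 0.44 ± 0.37 and Tacc3 by 0.89 ± 0.39, without a call (adjusted p = 0.467 and 0.16 without the filter). For Kif11 and Tacc3 the highest younger array, replicate 1, was at 827 and 589.1, above the older range in Kif11 and inside it in Tacc3. The cytokinesis regulators Racgap1 and Ect2 were not called. Racgap1 had 889, 394.4 and 652.4 at 7 weeks and 975.4, 1175.8 and 1035.7 at 36 weeks, with the ages apart by 0.74 ± 0.27 (adjusted p = 0.0591), and passed without replicate 1 of 7 weeks (0.0207). Ect2 was near the floor and overlapping, with a difference of 0.89 ± 0.51 (adjusted p = 0.27 without the filter).

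Set beside each other, the 13 replication and the 21 mitotic genes had nearly equal median differences, 0.76 and 0.74. With the offset of 50 the replication genes ranged from -0.28 (Pcna) to 2.45 (Mcm6), and the mitotic genes from 0.44 (Kif11) to 1.71 (Cdk1). With an offset of 1 the highest were Tyms (3.34) and Kif20a (2.18), both dim at 7 weeks. Of the replication genes 6 of 9 tested were called higher, and of the mitotic genes 10 of 13, against 16.7% of all tested probe sets. Without the filter the counts were 7 of 13 and 9 of 21, against 9.56% of all probe sets. Averaged over the replication genes and set against their mean at 7 weeks, the 3 older arrays stood at 0.91, 0.75 and 0.93 on the log2 scale, and over the mitotic genes at 0.76, 0.87 and 0.90. The younger arrays spread from -0.03 to 0.07 for replication and from -0.10 to 0.10 for mitosis, and both means were above the younger range on every older array. Which median was higher turned with the offset: with an offset of 1 in place of 50 the mitotic median was 0.92 and the replication median 0.81. No single array was the highest of its age in most genes. At 36 weeks replicates 1, 2 and 3 were highest in 8, 12 and 14 of the 34 genes.

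Of the 34 genes 19 had more than 1 probe set, and these did not always move together. Over all 63 probe sets 55 differences were above 0 and 8 below, and 0 were called lower with or without the filter. The probe sets of Mcm3 disagreed most. Probe set 1426653_at went from 39.4, 60.2 and 54.4 at 7 weeks to 1241.9, 1008.1 and 827 at 36 weeks, apart by 3.40 ± 0.34 and called without the filter (adjusted p = 0.000121). Mcm3's probe set 1426652_at, in contrast, had 239.3, 246.9 and 443.9 and 507, 84.6 and 206.6, overlapping, with a difference of -0.38 ± 0.53. The probe set of Mcm4 with the lower signal had 557.9, 453.1 and 614.6 at 7 weeks and 341, 429.8 and 305.3 at 36 weeks, with all older arrays below the younger and no call (adjusted p = 0.262 without the filter). A second probe set of Mcm7 rose by 1.38 (adjusted p = 0.000409), more than its brightest. Dimmer probe sets of the called genes Top2a and Nusap1 stood below 0, at -0.15 and -0.17. The lowest of the 63 differences was that of a dim probe set of Tacc3, -0.68 ± 0.38, with the ages overlapping. It was not called without the filter (adjusted p = 0.259), and Tacc3's other probe sets stood above 0, at 0.89 and 0.41. The second probe set of the called gene Mcm2, at -0.04, was nearly as bright as the one used (mean signals of 767 and 793). Averaging a gene's probe sets left 19 genes above the filter and 9 called higher, with the calls of Mcm2, Rrm1, Cdc20, Top2a and Nusap1 lost. Mcm3 and Aurkb, called by their brightest probe sets, then lay below the filter and were not tested.

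**Figure D3:**
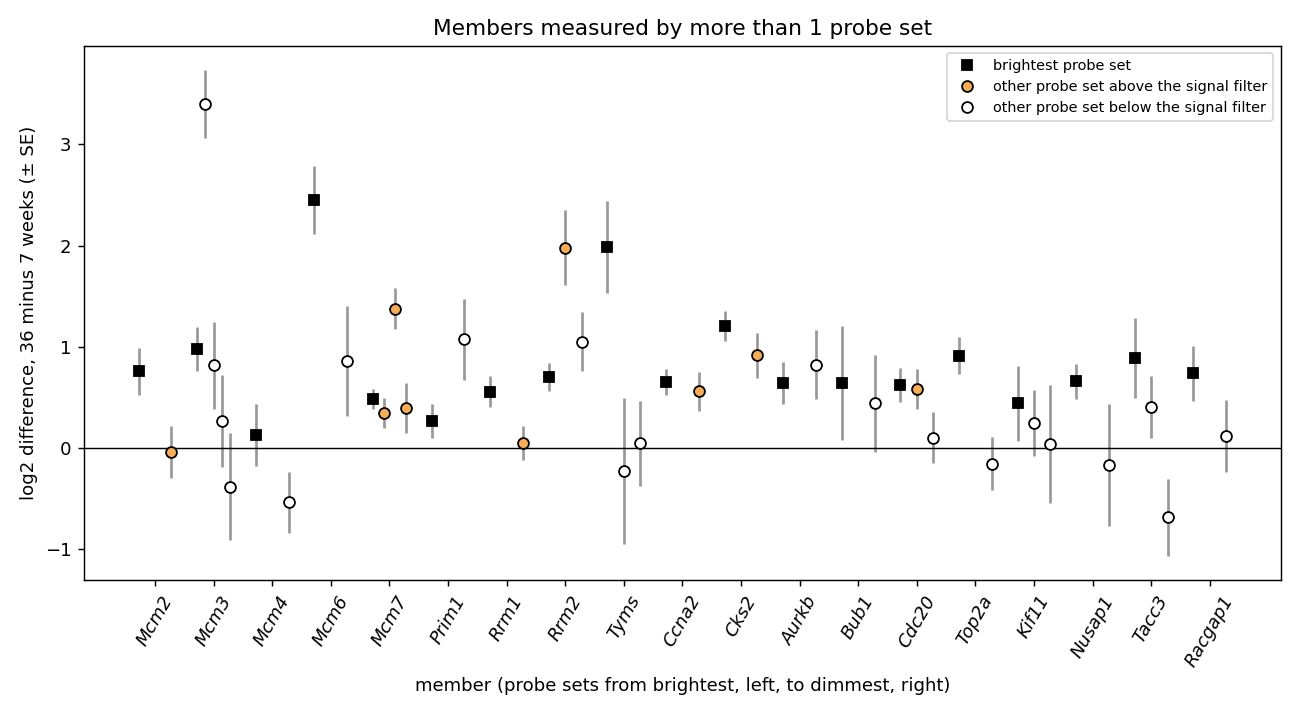
Log2 difference between the ages with its SE for each probe set of the 19 genes that have more than 1, from the brightest (left, black square) to the dimmest (right); orange circles lie above the signal filter and white circles below it. Mcm3 spans from -0.38 to 3.40, and 8 of all 63 differences lie below 0.

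Of 36 other replication genes measured, 20 had differences above 0 and 16 below, with a median of 0.21. Of these genes 24 were tested, 7 called higher and 1 lower, against 16.7% and 17.7% of all tested probe sets. The median of the 36 was 0.10 without replicate 2 of 7 weeks, 0.11 without replicate 1 and 0.33 without replicate 3 of 36 weeks. It was 0.11 with quantile normalization and 0.11 with median centring. The 3 brightest were Rpa1, Fen1 and Rfc2. Rpa1, of the protein that coats single-stranded DNA, fell by 0.30 (adjusted p = 0.0163), a call lost without replicate 2 of 7 weeks (0.0615) or replicate 3 of 36 weeks (0.0557), or without the intensity trend (0.0662). Fen1, the flap endonuclease, differed by -0.10 ± 0.22 and did not pass (adjusted p = 0.755), and its sign turned without replicate 1 of 7 weeks or replicate 2 of 36 weeks. Rfc2, of the clamp loader, rose by 0.55 (adjusted p = 0.00484). Of 43 other mitotic genes, with a median of 0.50, 24 were tested. Of these 8 were called higher and 0 lower (12 and 0 at an unadjusted p under 0.05), against the same shares of all tested probe sets. With the filter at the 60th percentile 10 of these mitotic genes were tested and 4 called higher, against 1776 of 9050 probe sets. Among the 3 brightest, Pttg1, securin, rose by 0.46 (adjusted p = 0.00972), while Zwint, of the kinetochore, and Bub3, of the checkpoint, differed by 0.11 ± 0.13 and -0.20 ± 0.11 without passing (adjusted p = 0.544 and 0.185). Bub3 was called lower with arrays centred on their medians (0.0428) and without replicate 2 of 7 weeks (0.0264). The probes read here for Fen1, Pttg1 and Bub3 can also bind related transcripts.

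Regulators of the G1 phase, when a cell commits to division, went both ways. Of 17 measured, with a median of 0.38, 10 were tested. Of these 4 were called higher and 2 lower, against 16.7% and 17.7% of all tested probe sets. The D cyclins, which carry growth signals to Cdk4 and Cdk6, split. Ccnd3 had 3048.2, 3855.1 and 3313.1 at 7 weeks and 6373.6, 6186.2 and 5822.5 at 36 weeks and rose by 0.84 (adjusted p = 0.000135). Ccnd1 went from 2489 ± 61.3 to 3696 ± 332 (SD) and rose by 0.56 (adjusted p = 0.00223). Ccnd2 went the other way, with 3354.3, 3232.1 and 3650.7 at 7 weeks and 2378.6, 1697.6 and 1916 at 36 weeks, and fell by 0.77 (adjusted p = 0.00141). Tfdp1, the partner of the E2F factors, rose by 1.08 (adjusted p = 0.000995) and E2f5, a repressive E2F, fell by 0.96 (adjusted p = 0.00216). Cdc25a, the phosphatase that activates Cdk2, rose by 0.49 (adjusted p = 0.0248), a call lost without replicate 2 of 7 weeks (0.0712), without any array of 36 weeks (0.066, 0.0529 and 0.0651) or with median centring (0.0583). Cdk2, Cdk4, E2f4 and E2f6 did not pass, at -0.39, -0.03, 0.19 and -0.37. E2f8, below the filter, was called higher without it, by 1.45 ± 0.40 (adjusted p = 0.0308), and Ccne1, Ccne2, Cdk6, E2f1, E2f3 and Myc, also below it, were not.

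The CDK inhibitors and the pocket proteins, which hold cells out of the cycle, were divided. Of 10 measured, 8 were tested, 2 were called higher and 3 lower, against 16.7% and 17.7% of all tested probe sets. Cdkn1c, the inhibitor p57, had 3385.3, 4031.4 and 2949.7 at 7 weeks and 774.2, 917.2 and 709.3 at 36 weeks. The older arrays of Cdkn1c were all far below the younger, and it fell by 2.04 (adjusted p = 4.44e-06). Cdkn1b, the inhibitor p27 that keeps supporting cells of the organ of Corti from dividing, fell by 0.62 (adjusted p = 0.0079), and Rb1, the retinoblastoma protein, by 0.76 (adjusted p = 0.00498). Both are also expressed in many other cells. The INK4 inhibitors Cdkn2d and Cdkn2c rose, by 0.54 and 0.46 (adjusted p = 0.00647 and 0.0166). The call of Cdkn2c was lost without replicate 2 of 7 weeks (0.0588) or without replicate 1 or 2 of 36 weeks (0.0536 and 0.0527). Cdkn1a, the inhibitor p21, differed by -0.33 ± 0.13 and fell short (adjusted p = 0.0709), but passed with median centring (0.0211) and without replicate 1 of 36 weeks (0.0269). Rbl1 and Rbl2 differed by 0.52 and -0.33 without passing. Cdkn2a and Cdkn2b, below the filter, were not called without it.

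Markers of blood-forming and immune cells, some of which divide, stood beside these genes on the same arrays. Of 9 measured markers of early granulocyte precursors 8 were tested and 8 called higher, against 16.7% of all tested probe sets. The median difference of the 9 was 1.85, and their summed signal went from between 13415 and 13923 at 7 weeks to between 87010 and 90606 at 36 weeks. Mpo, Elane and Prtn3, enzymes of the primary granules made at the promyelocyte stage, rose by 3.87, 3.31 and 3.98 (adjusted p = 9.44e-11, 1.38e-09 and 4.58e-10). Gfi1, a factor of the same lineage, was below the filter and differed by -0.80. All 11 measured markers of later granulocyte stages were called higher, with a median of 3.74 and a summed signal from between 46282 and 50958 to between 643169 and 684799. S100a9, Ltf and Ngp, the 3 brightest, rose by 3.74, 3.65 and 3.93. Erythroid precursor markers went both ways. Of 12 measured, 9 were tested. Of these 1 (Epor, the erythropoietin receptor) was called higher and 3 lower, against 16.7% and 17.7% of all tested probe sets. The sum of the 12 went from between 25456 and 27932 to between 19138 and 19523. Tfrc, the transferrin receptor of iron uptake, and Slc4a1, the anion exchanger of red cells, fell by 1.06 and 1.89 (adjusted p = 2.47e-06 and 1.71e-06), and Alas2, of haem synthesis, differed by 0.24 ± 0.09 (adjusted p = 0.0621). Epor rose by 0.40 (adjusted p = 0.0287). Without replicate 3 of 7 weeks, without replicate 1 or 2 of 36 weeks, or with median centring, 0 erythroid markers were called higher. Alas2 was called higher with quantile normalization (0.0354) and without replicate 1 of 7 weeks (0.0429). Of 12 B cell precursor markers only 6 were tested, and of these 0 were called higher (1 at an unadjusted p under 0.05) and 1 lower. Without the filter all 12 were tested, with 0 called higher (2 at an unadjusted p under 0.05) and 1 lower. The sums of the 12 overlapped, from 7881 to 9002 at 7 weeks and from 5968 to 9206 at 36 weeks. Ebf1, which mesenchymal cells also express, fell by 1.00 (adjusted p = 0.00214), and Vpreb3 and Cd79a differed by 0.19 and 0.49 without passing. No marker of these lists was at a signal of 0 on any array. With 1 array left out the median of the erythroid list reached -0.34 (without replicate 3 of 7 weeks), and was -0.23 without replicate 1 of 7 weeks and -0.21 without replicate 1 of 36 weeks, against -0.14 with all arrays. That of the B cell list, 0.17 with all arrays, was 0.01 without replicate 1 of 7 weeks and 0.07, -0.11 and 0.28 without replicates 1, 2 and 3 of 36 weeks. The part of these cells in the replication and mitosis result was not tested.

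**Figure D4:**
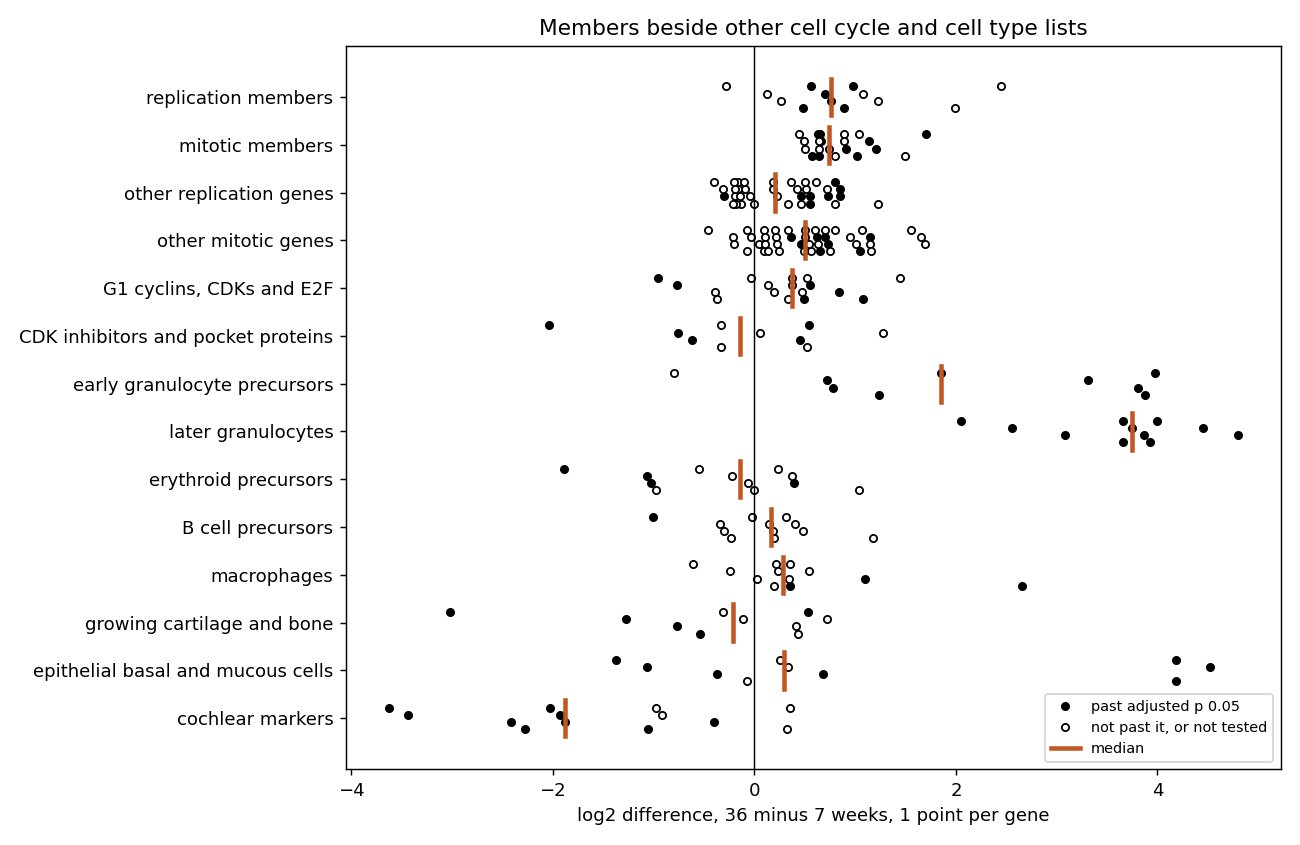
Log2 difference between the ages for each gene (points, filled where past an adjusted p of 0.05) of the replication and mitotic genes and of the other lists, with each list's median as a bar. The medians of the replication and mitotic genes, 0.76 and 0.74, lie between that of the early granulocyte precursors (1.85) and those of the erythroid (-0.14) and B cell precursors (0.17).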

How the data were processed

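Total RNA of 6 cochlea samples was labelled with biotin and hybridised to Affymetrix arrays, per the labels' protocols. Each deposited value is a linear 1-colour intensity per probe set, and the authors' arrays stood at a near-equal level: the mean between the 2nd and 98th percentiles was 1490 to 1493 on all 6 arrays. The summarising software and the absolute scale are not given in the sources used here. Gene symbols came from the annotation of the array platform (20380 with 1 symbol, 691 with several, 1555 with none), and all 63 probe sets of the genes described were found in RefSeq (GRCm38.p6) with 0 symbols changed. Names ending in _x_at or _s_at mark probe sets that can bind related transcripts. The brightest probe sets of Mcm3, Mcm7, Rrm2, Aurkb and Cdc20 were of this kind. Among the genes named from other lists, so were those of Fen1, Pttg1, Bub3, Cdk4, E2f5 and Slc4a1.

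The log2(signal + 50) scale makes changes of dim probe sets look smaller. The 13575 probe sets with a mean above the 40th percentile were fitted with limma 3.58.1 (lmFit, eBayes with intensity trend; R 4.3.3), unpaired and two-sided, with Benjamini-Hochberg adjustment over all of them; the script was tested on simulated data. An exact permutation test of 3 against 3 cannot go below 0.1 and was not used. SEs of untested genes come from the fit without the filter. Figures used Python 3.11.15 and matplotlib 3.10.9. The members and lists were chosen with earlier results of these data known. Every member was named, and of other lists the 3 genes with the highest mean signal, or every gene measured for the regulators of G1 and the inhibitors. Lists covered other replication and mitotic genes, G1 regulators, CDK inhibitors, granulocytes, erythroid and B cell precursors, macrophages, cartilage and bone, epithelium and the cochlea; list genes were taken by their brightest probe set. Genes named beyond this rule (Gfi1, Fcgr3, Epor, Myo7a, Slc26a5) were chosen after their values were seen. Alternatives tried were offsets of 1 and 16, quantile normalization, median centring, no filter or one at the 60th percentile, no trend, the replicate number as a block, the mean of a gene's probe sets, each array left out, a 1.5-fold minimum and, added after seeing the data, probe sets without _x_at or _s_at and a filter on mean log2 signal.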

Additional observations from a re-analysis of the deposited data

How the results depend on the processing

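Over 359 values of the tested members under another setting, 325 kept their side of the threshold, 27 lost a call, 7 gained one and 0 calls reversed. The sign of the difference changed in 2 of these values, both of Mcm4, which was not called: -0.25 without replicate 1 of 36 weeks and -0.20 with the mean of its probe sets. Of the 16 called members, 7 (Mcm3, Mcm5, Rrm2, Ccna2, Cks2, Plk1 and Ube2c) kept the call under every alternative that tested them. Of these, Mcm5, Plk1 and Ube2c passed the filter through their signal at 36 weeks. In the limma fit without the filter their adjusted p was 0.0201, 0.00888 and 0.0164. The filter at the 60th percentile tested only Rrm2, Ccna2 and Cks2 of the 7. Mcm3 was below the filter with the mean of its probe sets and with its brightest probe set without _x_at or _s_at. The count called higher was 8 of 11 tested with the filter at the 60th percentile, which tests fewer genes. With the mean of a gene's probe sets it was 9 of 19. Over all tested probe sets, those settings called 1776 of 9050 and 2255 of 13563 higher. Under the other settings with all arrays the members called higher were between 13 and 17. Those settings called between 1525 (1.5-fold minimum) and 2267 of 13575 probe sets higher, and 2162 of 22626 without the filter. With each array left out in turn the members called higher ran from 12 to 16, and all probe sets called higher from 1779 to 2068. The count of members called lower was 0 each time. Centring on array medians called 1 member lower, Pcna; the cause was not tested. The median of the mitotic members was 0.92 and 0.85 with offsets of 1 and 16, 0.64 both with quantile normalization and with centring, and 0.61 with the mean of all probe sets, and ran from 0.67 to 0.86 with 1 array left out. That of the replication members was 0.89 with the brightest probe set without _x_at or _s_at, an alternative chosen after seeing the data, and ran from 0.64 to 0.89 with 1 array left out. The cause of these shifts was not tested. The replicate numbers were not found to pair the samples: the deviations of same-numbered arrays correlated at 0.049, -0.01 and -0.002, and not every array correlated best with its own number. With the replicate block 15 members were called higher and 0 lower, Aurkb being lost. Among 48 genes named from other lists, 690 of 715 values kept their side of the threshold, 16 lost a call, 9 gained one and 0 calls reversed; the sign changed in 6, of Fen1, Cdk4 and Zwint, none of them called. Dim signals at 7 weeks limit the size given for Mcm6, Cdc6, Tyms, Bub1, Bub1b, Kif20a and Ect2.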

Other observations

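Other cell types of a dissected cochlea that can divide were read from 3 further marker lists. Of 12 macrophage markers 10 were tested. Of these 3 were called higher and 0 lower (5 and 0 at an unadjusted p under 0.05), against 16.7% and 17.7% of all tested probe sets. The median difference of the 12 was 0.29 (0.19 with median centring). With the filter at the 60th percentile 8 of the markers were tested and 5 called higher, against 1776 of 9050 probe sets. Lyz2, lysozyme, which granulocytes share, rose by 2.66 and Fcgr3, an Fc receptor also on granulocytes, by 1.10 (adjusted p = 9.44e-11 and 0.000306). Csf1r, the receptor that defines the lineage, differed by 0.19 ± 0.07 (adjusted p = 0.055), and passed with quantile normalization (0.0134) and with the filter at the 60th percentile (0.0447). Cd14 rose by 0.35 (adjusted p = 0.0279), a call lost with median centring (0.0921), without replicate 2 of 7 weeks (0.0887) or without replicates 1, 2 or 3 of 36 weeks (0.0879, 0.0574 and 0.0512).

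Of 10 markers of growing cartilage and bone measured, 8 were tested. Of these 4 were called lower and 1 higher, against 17.7% and 16.7% of all tested probe sets. With the filter at the 60th percentile 4 of the markers were tested, 2 called lower and 1 higher. Col2a1 and Acan, matrix genes of cartilage, fell by 1.27 and 0.76 (adjusted p = 0.000196 and 0.000861), while Col1a1, the collagen of bone and connective tissue, rose by 0.53 (adjusted p = 0.00497). Of 10 markers of basal and mucous epithelium, 9 were tested, 4 called higher and 3 lower. Tff2 and Muc5b, of mucus secretion, rose by 4.52 and 4.18, and Krt18, a simple-epithelium keratin, by 0.68 (adjusted p = 5.94e-11, 7.48e-11 and 0.000287). The part of these cell types in the replication and mitosis result was not tested.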
